A study of Mus musculus with 8 samples.

Results

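The genes described here encode the NF-κB subunits (Nfkb1, Nfkb2, Rel, Rela and Relb), their inhibitors (Nfkbia, Nfkbib and Nfkbie) and the catalytic kinases that release the subunits from the inhibitors (Ikbkb and Chuk). These 10 genes were chosen by name, out of 22367 protein-coding genes, by a rule that uses no measured value. The choice was made with earlier results of these data known. Histone marks were mapped by ChIP-seq in 2 groups of subcutaneous isografts of the Lewis lung carcinoma line, a mouse lung tumor line, grown to about 500 mm3 in female C57BL/6J mice of 6 to 8 weeks. LLC-NR cells are sensitive to VEGF-Trap, a decoy receptor that binds VEGF, and LLC-R cells came from the same line after 5 rounds of selection in mice under continuous VEGF-Trap. Chromatin of each isograft type was digested with micrococcal nuclease and precipitated with antibodies against H3K4me3, H3K9ac, H3K27me3 or H3K36me3. There was 1 library per line and mark, 8 libraries in all, so the data hold no replicate error, and no difference between LLC-NR and LLC-R could be tested. LLC-R is a single selected subline, and isograft tissue holds host cells beside tumor cells. Their signals cannot be told apart here.

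NF-κB dimers are kept in the cytoplasm by inhibitors that mask their nuclear import signals. Kinases activated by cytokines and by Toll-like receptors phosphorylate the inhibitors, which are then degraded, and the freed dimers bind κB sites in DNA. Several of the genes that encode the subunits and inhibitors are themselves NF-κB targets, a feedback that shapes the response. In tumors the pathway is known for its control of inflammatory cytokines, survival and angiogenic factors. H3K4me3 and H3K9ac mark the promoters of active genes, H3K36me3 follows transcription along gene bodies, and H3K27me3 is deposited by Polycomb complexes on repressed genes.

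The deposited data list peaks only by position. Every peak was 147 bp long, the length of DNA around a nucleosome, and the libraries held 5660458 to 9101721 peaks, so that peaks covered 31.3% to 50.4% of the genome. A peak thus places a nucleosome-sized interval and gives no height, and a 1.5-kb promoter held at most 9 peaks of any mark. The promoter was the interval that begins 1 kb before the transcription start site (TSS) shared by most transcripts and ends 0.5 kb after it, and a peak was counted when its midpoint lay inside. Among equally shared TSSs the one farthest upstream was taken as the most shared, as in Nfkb2, Rela and Nfkbib, whose transcripts each had their own TSS. The 10 genes had 55 annotated transcripts and 31 distinct TSSs when TSSs within 100 bp were joined, and every TSS was examined. Promoters of known markers of leukocytes, endothelial cells, fibroblasts and lung epithelium had mean H3K4me3 numbers of 4.67 to 5.5 peaks in LLC-NR and 4.17 to 5.33 in LLC-R, close to the means of all genes. Their H3K9ac means were 5.67 to 7.5 in LLC-NR versus 5.13 to 5.83 in LLC-R, with mean differences of -1.67 peaks for fibroblasts, -1.38 for leukocytes, -1.17 for lung epithelium and 0.167 for endothelial cells, against -0.543 over all genes. No marker promoter was without H3K4me3 peaks in LLC-NR, so these numbers did not tell which cell types the tissue held, and the part of host cells in the values below was not tested.

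The sequence around the TSSs showed that the promoters were not of the same kind. Of the 10 genes, Nfkb2, Rel, Rela, Relb, Nfkbia, Nfkbie, Ikbkb and Chuk had CpG-rich promoters (HCPs) at the most shared TSS. Nfkbib had an intermediate one (ICP) and Nfkb1 a CpG-poor one (LCP). The class of Nfkbib rests on the choice of its farthest upstream TSS, with 28 CpGs in the 1.5-kb promoter. Its TSSs 872 and 998 bp downstream had 72 CpGs each. The CpG-poor TSS of Nfkb1, which encodes a precursor processed into a DNA-binding subunit, lay 23748 bp downstream of the first TSS of the gene, in an intron of the longest coding transcript and 14 bp before the start codon. The first TSS of Nfkb1 had 127 CpGs in its 1.5-kb promoter, with a G+C content of 61.3%, against 18 CpGs and 43.7% at the most shared TSS. The 200 bases before each TSS, from the mm9 assembly and on the strand of the gene, are shown to contrast these starts, with CpG dinucleotides in capitals.
Nfkb1, first TSS, chr3:135354512-135354711, minus strand: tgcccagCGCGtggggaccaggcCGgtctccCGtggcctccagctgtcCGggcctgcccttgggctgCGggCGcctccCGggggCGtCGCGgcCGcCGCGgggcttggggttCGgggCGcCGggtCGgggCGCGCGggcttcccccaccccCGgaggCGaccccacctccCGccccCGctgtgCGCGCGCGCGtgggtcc
Nfkb1, most shared TSS, chr3:135330764-135330963, minus strand: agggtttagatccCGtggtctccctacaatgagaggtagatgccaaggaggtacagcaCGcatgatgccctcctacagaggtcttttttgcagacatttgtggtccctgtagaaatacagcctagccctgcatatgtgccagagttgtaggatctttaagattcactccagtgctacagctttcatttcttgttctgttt

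These stretches held 30 CpGs before the first TSS and 2 before the most shared one. Because the rule of the most shared TSS placed Nfkb1 at an internal start, promoter numbers of Nfkb1 are given for both TSSs. The primers used by the study for ChIP-qPCR at Nfkb1, gcgaaacctcctcttcctg and aagtgagagagtgagcgagagag, each matched chromosome 3 once. They enclosed 72 bp at chr3:135354392-135354463, 48 to 119 bp downstream of the first TSS, in its untranslated first exon. The CpG-rich promoter is thus the promoter that the ChIP-qPCR addressed.

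Matches to the κB consensus, the 10-bp motif bound by NF-κB dimers, were searched on both strands in the promoters of all 31 TSSs. There were 21 matches at 18 separate places, since some matches overlapped, in 9 of the 10 genes. Chuk had no match. At the most shared TSS, 6 of 10 promoters held a match, against 19.5% of all promoters and 22.8% of HCPs. A match is a description of sequence and was not tested for binding. The matches discussed with the peaks are shown with 10 bases on each side, on the strand of the gene, and the match is in capitals.
Nfkb1, 36 bp downstream of the first TSS, chr3:135354461-135354490, minus strand: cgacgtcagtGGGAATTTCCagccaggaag
Relb, 20 bp upstream of the TSS, chr7:20214792-20214821, minus strand: cggcggcgccGGGGAATTCCgccgccccgc
Nfkbia, 24 bp upstream of the TSS, chr12:56593644-56593673, minus strand: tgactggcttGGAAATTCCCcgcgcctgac
Rela, 420 bp downstream of the first TSS, chr19:5637888-5637917, plus strand: ggcctgcggcGGAATCTCCCccctccccgc
Ikbkb, 166 bp downstream of the second TSS, chr8:23804356-23804385, minus strand: gtggctgcccGGGATGTCCCagaggggatg

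The match of Nfkb1 was in the untranslated part of an exon, those of Relb and Nfkbia upstream of the gene, that of Rela in an intron and that of Ikbkb in a coding exon. For Nfkbia, which encodes IκBα, the inhibitor best known as an early NF-κB target, 250 bases before the TSS are shown with the match in capitals.
Nfkbia, chr12:56593635-56593884, minus strand: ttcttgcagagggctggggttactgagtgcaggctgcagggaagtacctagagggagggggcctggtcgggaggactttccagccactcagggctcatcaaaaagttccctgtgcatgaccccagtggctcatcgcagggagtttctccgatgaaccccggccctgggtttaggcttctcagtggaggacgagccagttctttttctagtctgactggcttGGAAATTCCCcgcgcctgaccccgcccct

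The 10 promoters held more H3K4me3 peaks than the average promoter and about as many as the average HCP. In LLC-NR they had 6.3 ± 1.16 peaks (SD across the 10 genes) against a mean of 4.91 over all genes and 6.05 over HCPs. In LLC-R they had 5.7 ± 0.949 peaks against 4.60 and 5.60. In each line 9 of 10 genes were above the mean of all genes, whereas the share of all promoters above it was 63.8% (LLC-NR) or 58.8% (LLC-R). The exceptions were Relb in LLC-NR and Nfkb1 in LLC-R. For H3K9ac the genes had 6.0 peaks on average in LLC-NR versus 5.6 in LLC-R, against 5.51 and 4.96 for all genes. H3K27me3, at 4.4 and 5.3 peaks, and H3K36me3, at 3.4 and 5.3 peaks, were close to the means of all genes, which were 4.56 and 5.45 for H3K27me3 and 3.20 and 4.96 for H3K36me3.

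**Figure D1:**
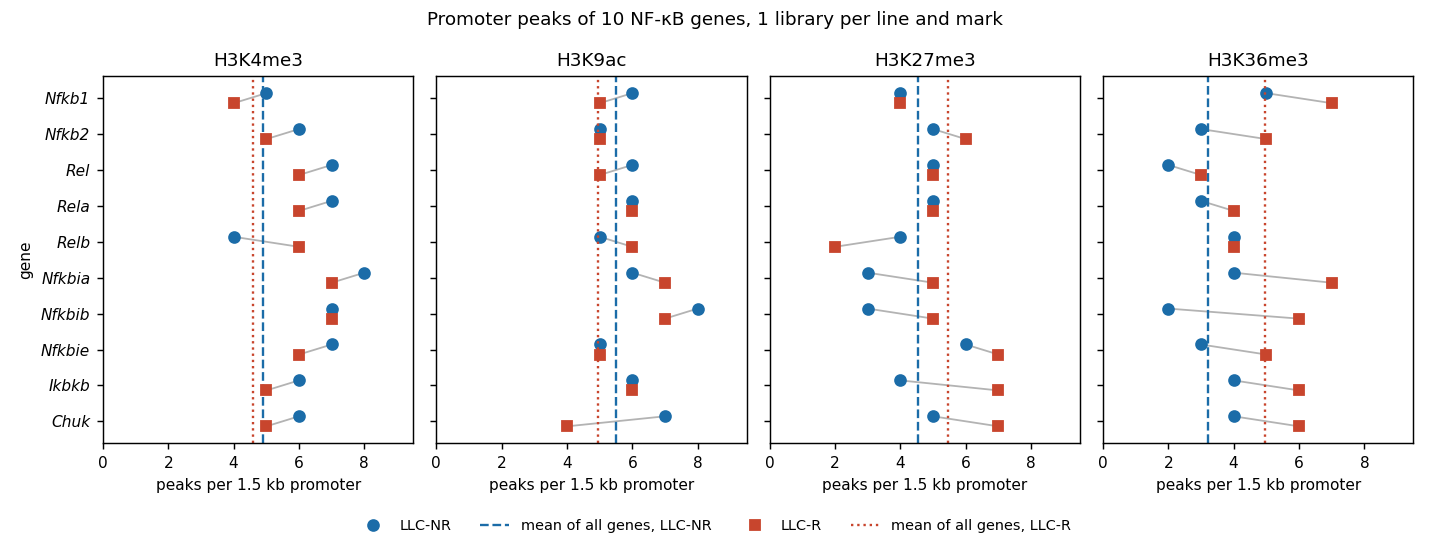
Number of peaks in the 1.5-kb promoter (x axis) of each of the 10 genes at the most shared TSS, for LLC-NR (circles) and LLC-R (squares), 1 library each; vertical lines are the means of all protein-coding genes. In H3K4me3 the LLC-R number is below the LLC-NR number in 8 genes and above it in Relb, and in H3K36me3 9 genes have more.

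Among the subunits, Rela and Rel, which both carry a transactivation domain, had like promoters. Rela had 7 H3K4me3 peaks in LLC-NR versus 6 in LLC-R, with 6 and 6 H3K9ac, 5 and 5 H3K27me3 and 3 and 4 H3K36me3 peaks. Rel had 7 and 6, 6 and 5, 5 and 5, and 2 and 3 peaks of the marks in the same order. The sum of absolute differences between Rela and Rel over the 8 libraries was 3 peaks, with at most 1 peak in any library. Nfkb2, whose precursor is processed in the non-canonical pathway, had 6 H3K4me3 peaks in LLC-NR versus 5 in LLC-R, 5 and 5 H3K9ac, 5 and 6 H3K27me3, and 3 and 5 H3K36me3 peaks. Relb, the partner of Nfkb2 in that pathway, had 4 and 6, 5 and 6, 4 and 2, and 4 and 4 peaks, and so had the opposite direction in H3K4me3 and H3K27me3.

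At the most shared TSS, Nfkb1 had 5 H3K4me3 peaks in LLC-NR versus 4 in LLC-R, 6 and 5 H3K9ac, 4 and 4 H3K27me3, and 5 and 7 H3K36me3 peaks. The H3K36me3 numbers were high for a promoter, at the 85.8th and 92.3rd percentiles of all genes (ties counted at mid-rank), and this TSS lies inside the transcribed gene. Among the genes with the most similar numbers over the 8 libraries were Il20rb, with a summed difference of 1 peak, and Ddx11 with 2. At the first TSS, Nfkb1 had 5 and 5 H3K4me3 peaks, 6 and 6 H3K9ac, 3 and 6 H3K27me3, and 3 and 4 H3K36me3 peaks. The active marks were thus equal in number in the lines at the CpG-rich promoter, while H3K27me3 peaks were more numerous in LLC-R. H3K27me3 rose at most such promoters. The 2627 promoters with 3 H3K27me3 peaks in LLC-NR had a mean of 5.04 in LLC-R, and the 6 peaks of Nfkb1 were at their 76.15th percentile.

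Among the inhibitors, Nfkbia had the most H3K4me3 peaks of the 10 genes in LLC-NR, with 8 in LLC-NR versus 7 in LLC-R, the 97.1st and 91.9th percentiles. Its H3K9ac numbers were 6 and 7, its H3K27me3 numbers 3 and 5, and its H3K36me3 numbers 4 and 7. Nfkbib, which encodes IκBβ, had 7 and 7 H3K4me3, 8 and 7 H3K9ac, 3 and 5 H3K27me3 and 2 and 6 H3K36me3 peaks. The TSS of Sirt2, a deacetylase gene on the other strand, lay 258 bp from the TSS of Nfkbib, so peaks there cannot be assigned to either gene. Nfkbib was the sole gene of the 10 with a neighbouring TSS within 5 kb. Nfkbie, which encodes IκBε, had 7 and 6 H3K4me3, 5 and 5 H3K9ac, 6 and 7 H3K27me3 and 3 and 5 H3K36me3 peaks.

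Of the kinases, Ikbkb encodes IKKβ, the kinase of the canonical pathway, and Chuk encodes IKKα, which acts in the non-canonical pathway. Ikbkb had 6 H3K4me3 peaks in LLC-NR versus 5 in LLC-R, 6 and 6 H3K9ac, 4 and 7 H3K27me3, and 4 and 6 H3K36me3 peaks. Chuk had 6 and 5, 7 and 4, 5 and 7, and 4 and 6 peaks. The H3K9ac numbers, 7 in LLC-NR but 4 in LLC-R, put Chuk at the 6.77th percentile of the LLC-R numbers of the 5256 promoters that had 7 H3K9ac peaks in LLC-NR. The second TSS of Chuk lay 198 bp downstream of the farthest upstream one, and there the H3K9ac numbers were 6 and 6. Compared with the window of the most shared TSS, its window lost the LLC-NR peak at -867 bp and gained the LLC-R peaks at 519 and 674 bp. At the internal TSSs of Chuk the H3K9ac numbers were 7 and 4, 7 and 5, 8 and 6, and 7 and 7. The lower number of LLC-R at the most shared TSS was also seen with 2 kb on each side, with peaks counted at 1 bp of overlap and with equal totals of peaks, but it was not called from 0.5 kb before to 1 kb after the TSS or when scaled by reads.

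A promoter was counted as different between the lines when its numbers of peaks differed by at least 2. For H3K4me3, 0 of the 10 genes had at least 2 fewer peaks in LLC-R, against 18.4% of all genes, and 1 gene, Relb, had at least 2 more, against 9%. For H3K9ac, 1 gene, Chuk, had fewer, against 22.1%, and 0 had more, against 5.4%. For H3K27me3, Relb had fewer, against 3.46%, and 4 genes (Nfkbia, Nfkbib, Ikbkb and Chuk) had more, against 31.9%. For H3K36me3, 0 genes had fewer, against 1.11%, and 7 had more, against 56%, all but Rel, Rela and Relb. These shares were near those of all genes. They also depended on scaling. LLC-NR numbers were multiplied by the ratio of uniquely mapped reads that the study lists, LLC-R over LLC-NR. The factors were 0.573 for H3K9ac, 2.14 for H3K27me3 and 2.32 for H3K36me3. Then 7 genes had at least 2 more H3K9ac peaks in LLC-R (42.3% of all genes), 7 had fewer H3K27me3 (76.1%) and 6 had fewer H3K36me3 (50.7%). A promoter holds at most 9 peaks, so the larger factors can lift LLC-NR numbers above any that LLC-R can reach. These counts therefore show no direction of the marks.

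A difference of any size in H3K4me3 was shared by most of the genes. The number was lower in LLC-R in 8 of 10 genes, equal in Nfkbib and higher in Relb, where 43.5% of all promoters were lower. With numbers scaled to equal totals of peaks 8 genes were lower, again with 43.5% of all genes. That scaling multiplied the LLC-NR numbers by 0.997, which could not undo a difference of 1 peak. But scaled by uniquely mapped reads 1 gene was lower and 9 were higher, against 28.0% and 68.0% of all genes. The mean difference of the 10 genes was -0.60 peaks, that of all genes -0.31 and that of HCPs -0.45. Promoters of all genes with 8, 7, 6 or 5 peaks in LLC-NR had means of 6.30, 5.96, 5.48 and 4.74 in LLC-R. Among promoters with the same LLC-NR number, Nfkbia was at the 73.41st percentile in LLC-R and Rel, Rela and Nfkbie at the 49.35th. Nfkb2, Ikbkb and Chuk were at the 32.42nd and Nfkb1 at the 28.82nd. The lower numbers of these 8 genes were thus ordinary for their LLC-NR numbers.

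A larger difference in H3K4me3 lay just downstream of the promoter window. From 0.5 to 1 kb downstream of the TSS, the 10 genes held 25 H3K4me3 peaks in LLC-NR versus 14 in LLC-R. Nfkb1 had 3 and 1 at its most shared, internal TSS and 3 and 2 at its first TSS, Relb 3 and 0, Chuk 3 and 1, Rela, Nfkbia and Ikbkb each 3 and 2, and Nfkbie 2 and 1. Nfkb2 and Rel had 2 in each line and Nfkbib 1 in each. Fewer peaks in LLC-R were thus found in 7 genes and more in 0, where 28.2% of all genes had fewer and 21.5% more. All genes had 1.65 and 1.57 peaks on average and HCPs 2.05 and 1.93, whereas the 10 genes began at 2.5 in LLC-NR. A segment of 0.5 kb holds few peaks of 147 bp, so genes with 3 peaks in LLC-NR had little room to rise. Segments were not matched on their LLC-NR number, so whether the lower numbers were ordinary for that start was not tested. The ratio of LLC-R to LLC-NR for the 10 genes was 0.56 without scaling and 0.676 when scaled by uniquely mapped reads. That scaling multiplied the LLC-NR numbers by 0.828, and with so few peaks per segment no lower gene could cease to be lower. The 7 lower genes and the 28.2% of all genes were therefore bound to stay the same. The 3 genes with equal numbers became higher, and 63.9% of all genes were then higher. From 1 to 1.5 kb downstream the order turned, with 21 peaks in LLC-NR versus 24 in LLC-R. These segments of 0.5 kb were examined after the values had been seen, so the difference is a description of these libraries. The segment is part of another window that was counted, which runs from 0.5 kb before to 1 kb after the TSS, and in which 6 genes (Nfkb1, Rela, Relb, Nfkbia, Nfkbie and Chuk) had at least 2 fewer H3K4me3 peaks in LLC-R, against 17.2% of all genes. In that window Nfkb1 had 7 and 6 peaks at its first TSS and would not be counted there, which leaves 5 genes. H3K9ac had no such difference from 0.5 to 1 kb, with 20 peaks in LLC-NR versus 21 in LLC-R.

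**Figure D2:**
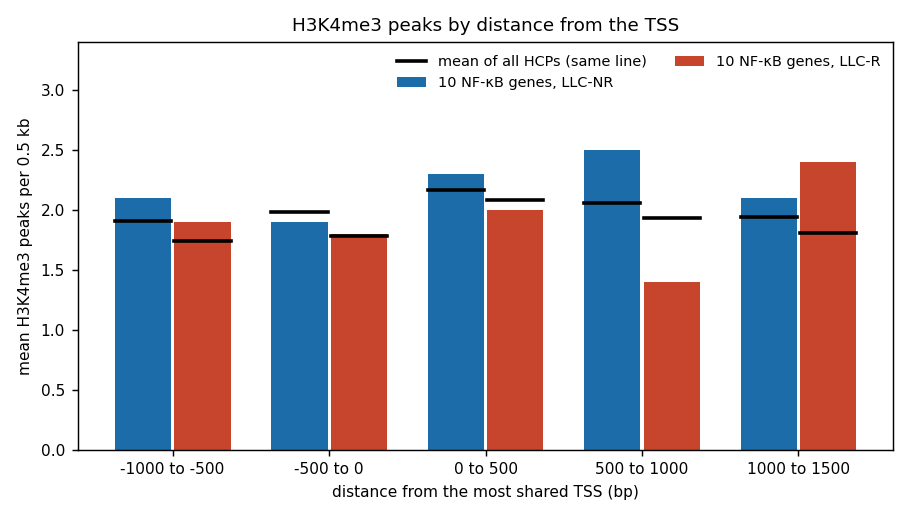
Mean number of H3K4me3 peaks per 0.5 kb (y axis) of the 10 genes in segments around the most shared TSS (x axis, bp), for LLC-NR (left bars) and LLC-R (right bars); black lines are the means of all HCPs of the same line. From 500 to 1000 bp the genes have 2.5 peaks in LLC-NR versus 1.4 in LLC-R, and in the next segment 2.1 and 2.4.

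At the CpG-rich first TSS of Nfkb1 the positions of the peaks showed where the lines differed. H3K4me3 peaks of LLC-NR followed the TSS at 163, 369, 517, 681 and 848 bp, while those of LLC-R were at 133, 603 and 845 bp. H3K27me3 peaks of LLC-NR were at -736, -460, -35 and 850 bp, so that a stretch of the first exon and intron was free of them. In LLC-R the H3K27me3 peaks at 147, 324, 511 and 668 bp lay in that stretch, with further peaks at 1183 and 1374 bp. Between 1 kb before and 1.5 kb after this TSS, Nfkb1 had 4 H3K27me3 peaks in LLC-NR versus 11 in LLC-R, and 1.04% of all genes had at least as large a difference at their first TSS. The means of all genes in that region were 7.44 and 9.09 peaks. This wider region was read after the positions had been seen, and the difference of 7 peaks was the largest for H3K27me3 among the 10 genes. The Nfkb1 first promoter passed from active to bivalent by the states described further on. In the 72-bp qPCR amplicon, H3K4me3 peaks covered 41.7% of the bases in LLC-NR versus 83.3% in LLC-R, and H3K9ac peaks 93.1% and 81.9%. H3K27me3 peaks covered 0% in LLC-NR versus 63.9% in LLC-R, and H3K36me3 peaks 86.1% and 0%. At this size a peak moved by a fraction of its width changes the coverage, and the H3K4me3 values came from peaks at 163 bp in LLC-NR and 133 bp in LLC-R.

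**Figure D3:**
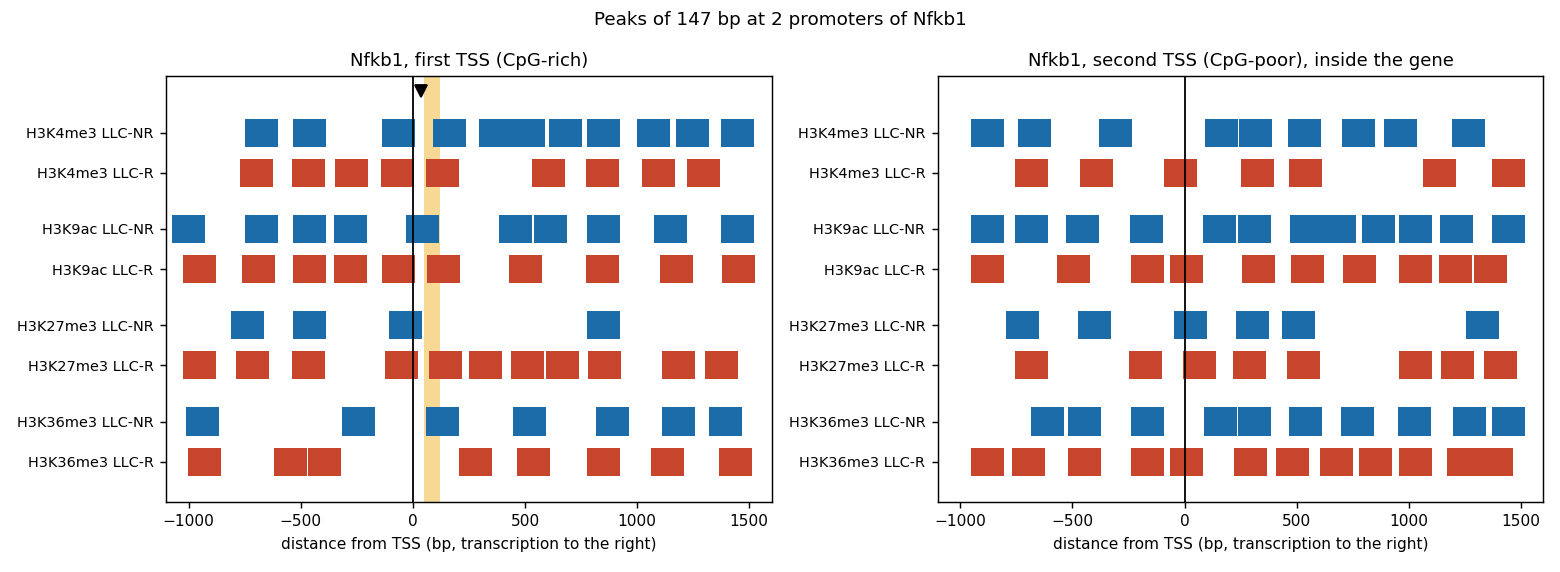
Position of every peak, drawn at its length of 147 bp, at the first and second TSS of Nfkb1 (x axis, bp from the TSS), in LLC-NR (blue) and LLC-R (red), 1 row per mark and line. The yellow band is the qPCR amplicon and the triangle the κB match at 36 bp; downstream of the first TSS, H3K27me3 peaks are at 850 bp in LLC-NR and at 147, 324, 511, 668, 854, 1183 and 1374 bp in LLC-R.

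Relb went against the other genes at its first TSS but not further downstream. H3K4me3 peaks upstream of the TSS lay at -901 and -161 bp in LLC-NR and at -858, -606, -407 and -162 bp in LLC-R. Downstream, peaks at 154 and 329 bp in LLC-NR had counterparts at 159 and 330 bp in LLC-R, whereas the LLC-NR peaks at 510, 689 and 861 bp had none. Promoters of the downstream TSSs of Relb, 654 and 965 bp from the first, therefore had 7 H3K4me3 peaks in LLC-NR versus 4 in LLC-R, the reverse of the 4 and 6 at the first TSS. H3K27me3 went from 4 to 2 peaks at the first TSS of Relb, which was at the 0.566th percentile among the 4065 promoters with 4 H3K27me3 peaks in LLC-NR. Over the 2.5 kb that begin 1 kb before the TSS the numbers were 4 and 4, and with 2 kb on each side of the TSS the direction turned, with at least 2 more H3K27me3 peaks of Relb in LLC-R. The surrounding 2 Mb held 1587 H3K4me3 peaks in LLC-NR, against 3154 to 6276 for the bins of the other genes, and the part of this low density in the values of Relb was not tested.

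**Figure D4:**
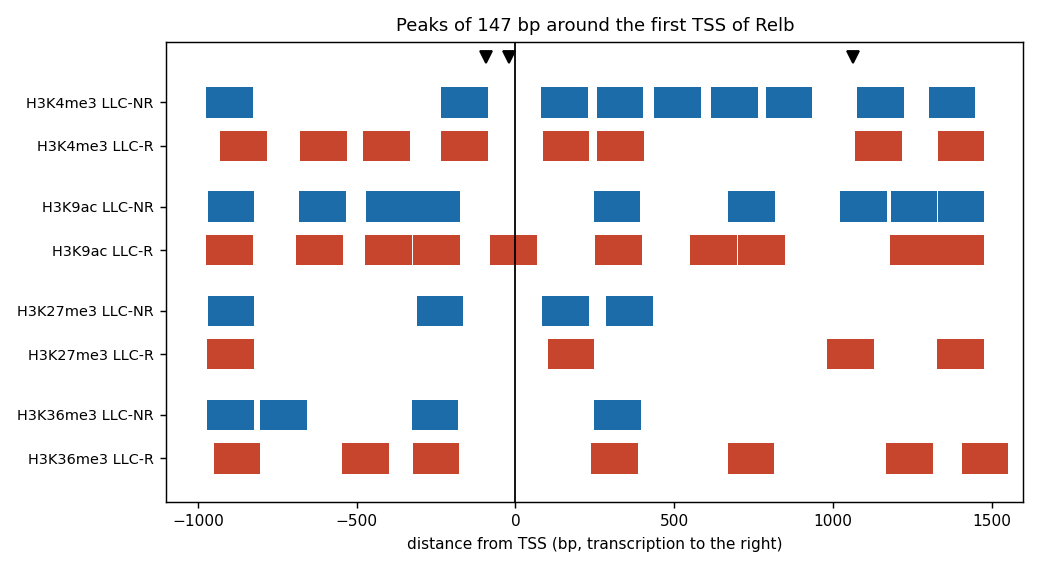
Position of every peak, drawn at its length of 147 bp, around the first TSS of Relb (x axis, bp from the TSS), in LLC-NR (blue) and LLC-R (red), 1 row per mark and line; triangles are κB matches. LLC-NR has H3K4me3 peaks at 510, 689 and 861 bp that LLC-R lacks, and LLC-R has peaks at -606 and -407 bp that LLC-NR lacks.

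Positions of H3K4me3 and H3K36me3 peaks were closer between the lines in the 10 genes than over all promoters, with smaller differences for H3K9ac and H3K27me3. Of the LLC-NR peaks of all 4 marks in the 10 promoters, 97 of 201 (48.3%) had an LLC-R peak of the same mark with its midpoint within 20 bp. Of 63 H3K4me3 peaks in the LLC-NR promoters, 34 (54.0%) had an LLC-R peak midpoint within 20 bp, against 37.5% over all promoters and 44.6% over HCPs. The median distance to the nearest LLC-R peak was 14 bp for the 10 genes, 42 bp for all genes and 28 bp for HCPs. For H3K9ac 48.3% lay within 20 bp, against 40.3% over all promoters and 44.5% over HCPs. For H3K27me3 the share was 38.6%, against 35.4% and 33.65%, and the median distance was 38 bp against 40 bp over all promoters. For H3K36me3 it was 50%, against 33.9% and 34.4%. Relb and Chuk had the closest H3K4me3 positions beside Nfkbib, with medians of 3, 6.5 and 6 bp, and Nfkb1 the most distant, with 86 bp at the most shared TSS. The first H3K4me3 peak downstream of the TSS lay at 38 to 162 bp in LLC-NR. In LLC-R it lay at 63 to 326 bp, where the value of 326 bp was from Nfkb1 and the next highest, 159 bp, from Relb.

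Peaks covered the TSS itself in 0 to 5 of the 10 genes, depending on the mark and line. H3K4me3 peaks covered the most shared TSS of 4 of 10 genes in LLC-NR versus 3 in LLC-R, where 42.0% and 39.1% of the TSSs of all genes were covered. H3K9ac peaks covered it in Nfkbib and Ikbkb in LLC-NR, and in Nfkb1, Rel, Rela, Relb and Nfkbia in LLC-R, where 40.8% and 36.2% of all TSSs were covered. H3K36me3 peaks covered it in 0 genes in LLC-NR and in Nfkb1, Rel and Chuk in LLC-R, against 21.9% and 36.9% of all TSSs. Of the 21 κB matches, 8 were wholly inside an H3K4me3 peak in LLC-NR versus 6 in LLC-R, where 52.2% and 50.0% of all 5401 promoter matches were. The 21 matches come from the promoters of all 31 TSSs of the 10 genes. The 5401 come from the most shared TSS of each gene, where the 10 genes had 13 matches. The sets are thus unlike for every mark. H3K9ac peaks held 6 matches in LLC-NR versus 13 in LLC-R, against 54.5% and 48.1% of all matches. The matches in H3K27me3 peaks were 5 and 9, against 48.7% and 56.7% of all matches, and those in H3K36me3 peaks 2 and 5, against 28.4% and 48.6%.

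Single matches showed how a shift of a peak decides this count. The Nfkb1 match, 36 bp downstream of the first TSS, was inside the LLC-NR H3K9ac peak at 41 bp, and in LLC-R it lay between H3K9ac peaks at -63 and 134 bp. The Relb match shown, 20 bp upstream of the TSS, was outside H3K9ac peaks in LLC-NR and inside a peak centred 7 bp upstream of the TSS in LLC-R. At the Nfkbia match, 24 bp upstream of the TSS, an H3K4me3 peak was centred at -19 bp in LLC-NR. In LLC-R the nearest Nfkbia peaks were at -192 and 145 bp, and H3K9ac had a peak at 31 bp that reached the match. The Rela match at 420 bp was inside peaks of 7 of the 8 libraries and the Ikbkb match inside peaks of 6, both downstream of the TSS.

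Where genes had several TSSs, the numbers of peaks varied with the start that was chosen. The internal TSSs of Nfkb1 that lay 83064 to 97106 bp downstream had 4 or 5 H3K4me3 peaks in LLC-NR and 5 or 6 in LLC-R. The internal TSSs of Chuk, 23030 to 31576 bp downstream, had 2 to 4 H3K4me3 peaks in LLC-NR and 4 to 6 in LLC-R, and 6 to 8 H3K36me3 peaks in either line. The first TSS of Chuk had 4 H3K36me3 peaks in LLC-NR versus 6 in LLC-R. The downstream TSSs of Nfkbib, 872 and 998 bp from its first one, had 0 H3K36me3 peaks in LLC-NR and 6 or 5 in LLC-R. Over the same 2.5 kb around its first TSS Nfkbib had 2 H3K36me3 peaks in LLC-NR versus 9 in LLC-R, and 3.24% of all genes had at least as large a difference.

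Promoter states were assigned with the mean of all promoters in the library as threshold. A promoter at or above the mean in H3K4me3 or H3K9ac was active when H3K27me3 was below its mean and bivalent when it was not. Promoters below both active means were repressive or, with H3K27me3 also below its mean, in no class. In LLC-NR 4 genes were active (Nfkb1, Nfkbia, Nfkbib and Ikbkb), 5 bivalent (Nfkb2, Rel, Rela, Nfkbie and Chuk), 0 repressive and Relb was in no class. In LLC-R 6 were active and 4 bivalent. Of all genes 29.9% were active and 48.3% bivalent in LLC-NR, while in LLC-R the shares were 28.4% and 52.9%. The state was the same in both lines for 6 of 10 genes and 62.1% of all genes. Rel and Rela went from bivalent to active with 5 H3K27me3 peaks in each line, because the threshold rose from 4.56 to 5.45 peaks. Relb went from no class to active at its first TSS, while its downstream TSSs were active in both lines. Ikbkb went from active to bivalent at its most shared TSS but not at its internal ones. Nfkb1 went from active to bivalent at its first TSS and was active in both lines at its most shared one.

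Gene bodies of the 10 genes held many H3K36me3 peaks. Peaks were counted per kb from 0.5 kb downstream of the TSS to the gene end, and the 9 genes with at least 3 kb of body were set against the 17705 such genes, while Nfkbia, with 2737 bp of body, was left out of the summary. The 9 genes had 3.82 ± 0.385 H3K36me3 peaks per kb (SD across genes) in LLC-NR versus 4.24 ± 0.171 in LLC-R, against means of 3.03 and 3.78 over all genes. All 9 were above the median of all genes in LLC-NR, and 8 in LLC-R, where Nfkbib was just below it. Nfkb1, with 82645 bp of body, had 4.30 peaks per kb in LLC-NR versus 4.43 in LLC-R, the 98.0th and 93.0th percentiles. The body of Nfkb1 was counted from its internal most shared TSS, so the 23748 bp between its first TSS and that one were left out. Rela had 4.24 and 4.53, the 96.6th and 96.9th percentiles. Chuk had 4.19 and 4.25, the 95.3rd and 76.8th percentiles. Relb had the lowest value in LLC-NR, with 3.21 peaks per kb there and 4.05 in LLC-R. The 9 genes stood above all genes in LLC-NR by a ratio of 1.26 and in LLC-R by 1.12, but the spread of all genes was wide, with an SD of 0.944 and 0.849 peaks per kb.

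H3K27me3 was low along the same bodies. The 9 genes had 2.33 ± 0.338 peaks per kb in LLC-NR versus 3.63 ± 0.243 in LLC-R, against 2.76 and 3.66 over all genes, and 1 of 9 and 2 of 9 were above the median of all genes. Nfkbie had 1.87 and 3.74, Relb 1.89 and 3.30, and Nfkb2, the gene above the median in both lines, 2.92 and 3.94 peaks per kb. The distance to the mean of all genes was thus smaller in LLC-R, where the ratio was 0.991, than in LLC-NR, where it was 0.842. H3K4me3 was above the median in 8 of 9 genes in each line and H3K9ac in 8 and 6. Nfkb2, with a short body of 6854 bp, had 4.38 H3K4me3 peaks per kb in LLC-NR versus 4.23 in LLC-R, the 99.4th and 99.5th percentiles.

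**Figure D5:**
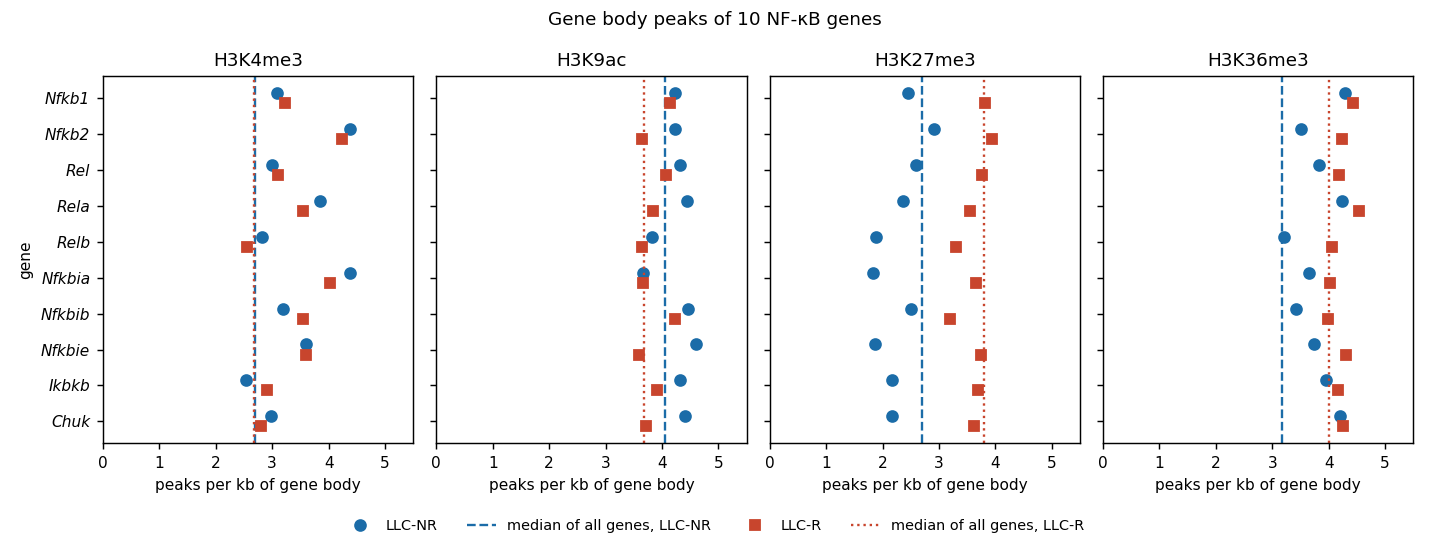
Peaks per kb of gene body (x axis) of each of the 10 genes for LLC-NR (circles) and LLC-R (squares), 1 library each; vertical lines are the medians of all genes with at least 3 kb of body. H3K36me3 values of LLC-NR lie to the right of the median in every gene and H3K27me3 values of LLC-NR to the left of it in every gene but Nfkb2.

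Along the body, most of the genes had more H3K36me3 in the last part than in the first and more H3K4me3 in the first. With the body cut into 3 equal parts, the last part had more H3K36me3 peaks per kb than the first in 8 of 9 genes in LLC-NR and 6 of 9 in LLC-R, against 54.6% and 48.0% of all genes. The means of the 9 genes were 3.41, 4.13 and 3.92 peaks per kb in LLC-NR, but 4.19, 4.36 and 4.16 in LLC-R, where the last part was the lowest. In Nfkb1, with the body counted from the internal TSS, the parts had 4.14, 4.39 and 4.36 peaks per kb in LLC-NR, whereas LLC-R had 4.39, 4.43 and 4.47. H3K4me3 was higher in the last part than in the first in 0 of 9 genes in LLC-NR and 1 of 9 in LLC-R, against 25.4% and 31.2% of all genes.

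Other genes of the pathway were counted in the same way from 4 lists, and 64 of the 65 listed genes were found. The 22 adaptors and upstream kinases had 6.27 H3K4me3 promoter peaks on average in LLC-NR versus 5.68 in LLC-R, close to the 10 genes, and 6 of them had at least 2 fewer in LLC-R and 1 at least 2 more. The 17 ligands and receptors had 5.65 and 5.29, with 3 fewer and 1 more. The 7 atypical and feedback inhibitors found had 6.57 and 5.86, with 1 fewer and 0 more. The 18 target genes had 5.56 and 5.17, with 3 fewer and 0 more. Of all genes, 18.4% had at least 2 fewer H3K4me3 peaks in LLC-R and 9% at least 2 more. A difference of the lists from these shares was not tested. At least 2 fewer peaks in both H3K4me3 and H3K9ac, which 4.65% of all genes had, were found in 0 of the 10 genes. They were found in 3 of the 64 genes of the lists, which is near the share of all genes, and these 3 are given as values only. Birc3, which encodes a ubiquitin ligase of the TNF receptor complex, had 8 H3K4me3 peaks in LLC-NR versus 6 in LLC-R and 7 and 5 H3K9ac peaks, with 1 and 4 H3K27me3 peaks. Tab3, an adaptor of the kinase upstream of IKK, had 7 and 5 H3K4me3 and 7 and 5 H3K9ac peaks, with 5 H3K27me3 peaks in each line. Tnfaip3, which encodes the deubiquitinase A20 that ends NF-κB signaling, had 7 and 5 H3K4me3 and 6 and 4 H3K9ac peaks, with 4 H3K27me3 peaks in each line.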

How the data were processed

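Histone marks were profiled by ChIP-seq in LLC-NR and LLC-R isografts, with 8 libraries in all and no replicate of any line and mark. Per the methods of the study and the labels, the authors aligned reads to mm9 with Bowtie 0.12.7, removed reads without a unique match and ran GeneTrack to call peaks, separately for every library, whose settings are not given in the sources used here. The deposited files hold peak coordinates in bp and no read counts, heights or strands, so numbers of peaks were used in place of the occupancy used by the authors, and depth behind a peak is unknown. No input library was used here. GENCODE vM1 gene models and the NCBIM37 sequence, the same assembly as mm9, gave TSSs, gene bodies and CpG classes. HCPs had a 500-bp interval with at least 55% G+C and a CpG observed to expected ratio of at least 0.6, and LCPs had none of at least 0.4. κB matches allowed no mismatch to the consensus.

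Groups came from the sample titles. With 1 library per group no test was made, and values were set beside all protein-coding genes of the same library. The genes and lists were chosen with earlier results of these data known. The genes named outside the 10 were those with at least 2 peaks fewer or at least 2 more in both H3K4me3 and H3K9ac, and the 3 genes closest to Nfkb1 over the 8 libraries, of which 1 is not reported here. Sirt2 is named as the one neighbour with a TSS within 5 kb. Nlrc5 of the inhibitor list was not matched to a gene model. Uniquely mapped reads listed by the study entered only as an alternative scaling. Segments of 0.5 kb, the 2.5-kb regions and the first peak downstream were examined after the values were seen. Counting was checked on simulated data. The software was pandas 2.3.3, NumPy 2.4.6, Matplotlib 3.10.9 and SciPy 1.17.1 under Python 3.11.15.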

Additional observations from a re-analysis of the deposited data

How the results depend on the processing

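Of 112 alternative values, 68 stayed close to those reported, 40 moved and 4 turned to the other side of 1. No paired analysis was possible because there is 1 library per line and mark, and no library could be left out. The cause of each change was not tested. With HCPs as background, the ratio of the 10 genes to the background was 1.04 (H3K4me3, LLC-NR), 1.02 (H3K4me3, LLC-R) and 1.02 (H3K9ac, LLC-NR). With 0.5 kb upstream to 1 kb downstream it was 1.1 (H3K4me3, LLC-R), 1.23 (H3K9ac, LLC-R), 0.836 (H3K27me3, LLC-R) and, on the other side of 1, 0.972 (H3K36me3, LLC-NR). With 2 kb on each side it was 1.17 (H3K9ac, LLC-NR), 0.892 (H3K27me3, LLC-NR), 1.18 (H3K36me3, LLC-NR) and, at 1 after rounding (H3K27me3, LLC-R, just above 1). With any overlap of 1 bp it was 1.39 (H3K4me3, LLC-NR), 1.22 (H3K9ac, LLC-R) and, at 1 after rounding (H3K27me3, LLC-R, just above 1). With the TSS farthest upstream it was 1.01 (H3K27me3, LLC-R).

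Counts of genes with at least 2 fewer H3K4me3 peaks in LLC-R were 6 with 0.5 kb upstream to 1 kb downstream (17.2% of all genes), 7 with 2 kb on each side (38.1%), 5 with 1 bp overlap (20.4%), 1 with the upstream TSS (18.5%) and 8 with a difference of 1 peak (43.5%). At least 2 more H3K4me3 peaks were found in 0 genes with either other window (9.08% and 16% of all genes). Fewer H3K9ac peaks were found in 0 (0.5 kb upstream to 1 kb downstream, 20.7% of all genes), 4 (2 kb on each side, 47.3%), 0 (scaled by reads, 0.0939%) and 4 genes (1 peak, 50.6%), and more in 1 (0.5 kb upstream to 1 kb downstream, 5.79%), 1 (1 bp overlap, 5.46%), 7 (reads, 42.3%) and 2 (1 peak, 19.2%). Fewer H3K27me3 peaks were found in 0 (2 kb on each side, 3.19% of all genes) and 7 genes (reads, 76.1%), and more in 2 (0.5 kb upstream to 1 kb downstream, 31.7%), 8 (2 kb on each side, 65.5%), 0 (equal totals of peaks, 9.72%) and 0 (reads, 1.73%). Fewer H3K36me3 peaks were found in 6 genes (reads, 50.7% of all genes), and more in 1 (equal totals, 21.6%) and 0 (reads, 6.93%). In gene bodies from 0.5 to 3 kb the ratio was 1.16 and 1.23 (H3K9ac, LLC-NR and LLC-R), 0.894 and 0.905 (H3K27me3, LLC-NR and LLC-R) and 1.15 (H3K36me3, LLC-NR). No height or depth of a peak is known, a promoter holds at most 9 peaks, and a difference of 2 peaks can arise from the placing of peaks at the edge of a window.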

Other observations

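Chromosome 19, which holds Nfkb2, Rela and Chuk, had a slightly smaller share of the peaks in LLC-R for every mark, with 2.51% of H3K4me3 peaks in LLC-NR versus 2.39% in LLC-R and 2.52% and 2.40% of H3K27me3 peaks. The bin of 2 Mb around Rela had 6276 H3K4me3 peaks in LLC-NR versus 5624 in LLC-R, the 5.79th percentile of 1287 bins for the log2 ratio of shares. The bin around Rel was at the 2.14th percentile for H3K36me3 and that around Nfkb1 at the 4.16th. These bins are lower than most in LLC-R, and their part in the promoter values of these genes was not tested.

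The first H3K36me3 peak downstream of the TSS lay at a median of 330 bp over the 10 genes in LLC-NR and 138 bp in LLC-R. HCPs had medians of 368 bp and 166 bp, so the 10 genes followed them. For H3K4me3 the medians were 116 bp and 128 bp over the 10 genes and 125 bp and 128 bp over HCPs.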
